A study of Mus musculus with 2 samples.

Results

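The genes *C1qa*, *C1qb* and *C1qc* encode the A, B and C chains of C1q, the recognition molecule of the classical complement pathway. They were selected by symbol and are 3 of the 31053 genes in each count matrix. Single-cell RNA was read in live cells sorted from back-skin wounds of mice at day 5, in 2 libraries, 1 per condition, each a pool of 3 mice by the methods. By the labels, both libraries came from *Mrc1-DTR* mice on the C57BL/6 background, aged 7 to 9 weeks, of which one group received PBS and the other diphtheria toxin (DTX). In these mice the *Mrc1* promoter drives the receptor for the toxin. *Mrc1* encodes the macrophage mannose receptor CD206, so that the toxin is aimed at any cell with an active *Mrc1* promoter, not at macrophages as a whole. The methods describe the controls as wild-type mice that also received the toxin. The study's text also assigns the numbers of cells to the conditions the other way round from the labelled files. The labels were followed here, and the libraries are called the PBS library and the DTX library. A difference between them cannot be told apart from a difference between the pooled mice, the sorts or the captures, and every interval given is a 95% interval for counting error only.

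C1q is built from the A, B and C chains in equal numbers. Each chain has a collagen-like stem, with runs of triplets of residues that open with glycine, and a globular head. The heads bind antibody in immune complexes, some microbial surfaces and dying cells. Once bound, C1q activates the proteases C1r and C1s, which cleave C4 and C2 and lead on to C3. Unlike most complement proteins, which come largely from the liver, C1q is made chiefly by macrophages and related cells in tissues, and it aids the uptake of apoptotic cells.

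In the annotation of the mouse build GRCm38 (mm10), the 3 genes lie side by side on the minus strand of chromosome 4, within 18675 bases that hold no other gene. *C1qb* (ENSMUSG00000036905) spans 136880129 to 136886187, *C1qc* (ENSMUSG00000036896) spans 136889804 to 136893065, and *C1qa* (ENSMUSG00000036887) spans 136895917 to 136898803, with gaps of 3616 and 2851 bases between neighbours. Each has 3 exons and a start codon in exon 2, and none overlaps another annotated gene, so UMIs of a chain are not shared with an overlapping gene. For each chain, the longest unbroken run of glycine-led triplets in the coding stretch of the collagen-like stem is shown. This run need not be the whole stem. Each run was picked for its glycine codons, so the shared pattern follows from the choice, and the chains were not aligned. The capitals mark the glycine codon that opens each triplet of residues, and all are read from the genome, 5′ to 3′ on the minus strand. The longest unbroken run of such triplets has 16 in *C1qa* (codons 62 to 109 of 245), 29 in *C1qb* (codons 31 to 117 of 253, across 2 exons) and 16 in *C1qc* (codons 68 to 115 of 246).
C1qa, chr4:136896565-136896708: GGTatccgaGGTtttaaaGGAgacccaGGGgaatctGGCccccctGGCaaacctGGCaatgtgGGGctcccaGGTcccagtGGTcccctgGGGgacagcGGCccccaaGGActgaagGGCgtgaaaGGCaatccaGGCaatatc
C1qb, chr4:136880700-136882217 with the intron removed: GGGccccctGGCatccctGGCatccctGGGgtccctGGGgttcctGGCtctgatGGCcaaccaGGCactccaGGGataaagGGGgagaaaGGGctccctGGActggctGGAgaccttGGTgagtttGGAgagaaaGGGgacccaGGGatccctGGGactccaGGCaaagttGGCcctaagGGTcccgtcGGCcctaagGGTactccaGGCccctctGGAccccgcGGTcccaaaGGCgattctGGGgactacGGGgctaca
C1qc, chr4:136890439-136890582: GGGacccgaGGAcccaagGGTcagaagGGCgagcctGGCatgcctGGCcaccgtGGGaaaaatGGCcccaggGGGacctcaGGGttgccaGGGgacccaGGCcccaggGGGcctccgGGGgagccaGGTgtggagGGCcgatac

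The sequence just upstream of a gene start is shown for *C1qb* and *C1qc*, from RefSeq for the build GRCm38.p6. Whether the chains share upstream control was not tested. It was searched on both strands for the core GAGGAA of PU.1, a transcription factor of macrophages and other myeloid cells, which is in capitals in the orientation in which it was found.
C1qb, chr4:136886201-136886450: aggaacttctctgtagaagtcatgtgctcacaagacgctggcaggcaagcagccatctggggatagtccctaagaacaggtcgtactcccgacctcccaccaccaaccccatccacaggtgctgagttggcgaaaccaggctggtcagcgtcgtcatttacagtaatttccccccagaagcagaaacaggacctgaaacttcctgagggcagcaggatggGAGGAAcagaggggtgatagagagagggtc
C1qc, chr4:136893066-136893164: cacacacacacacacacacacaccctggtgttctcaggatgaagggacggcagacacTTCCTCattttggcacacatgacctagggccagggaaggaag
The core was found once in each. Counted from the annotated starts given above, it lay 43 bases upstream in *C1qb* and, as the reverse complement, 42 bases upstream in *C1qc*. The RefSeq entries place both starts elsewhere, that of *C1qc* inside the span given above, so these distances do not hold from the RefSeq starts. The stretch between the annotated and the RefSeq start of *C1qc* was not searched. The core is common, being present in 23.3% of 32851 promoters in a window of 250 bases and in 9.91% in one of 99 bases. The window of 99 bases was the upstream part of each promoter farthest from its RefSeq start. The motif TGCTGA, part of the site of MAF factors, was found once in *C1qb*, 144 bases upstream, and not in the window of *C1qc*. It is in 16.1% of promoters in the longer window. The C/EBP motif TTGCNNAA and the TATA box TATAAA were found in neither window. A match describes letters in a window and not a bound site. The start region of *C1qa* was not analysed here.

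After filtering, 7944 cells of the PBS library (median 9579.5 UMIs) and 6613 of the DTX library (median 7286 UMIs) were used, where a UMI is 1 captured RNA molecule. Cells were clustered without the 3 chain genes and named from marker lists that do not hold them, which gave 1715 and 4444 macrophage-like cells with a median of 4716 and 6731 UMIs. The libraries shared 37 barcodes, of which 13 were kept in both. *Mrc1* itself was at 490 UMIs per 1e6 UMIs of the class (CPM) in macrophage-like cells of the PBS library and 428 in those of the DTX library (log2 ratio -0.19, interval -0.25 to -0.14), and at an equal depth of 2000 UMIs per cell it had a UMI in 52.3% and 42.5% of them.

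Macrophage-like cells held the highest summed C1q level of any class in both libraries. *C1qa* alone was higher in Langerhans-like cells of the DTX library, at 1022 CPM (927 to 1124), than in its macrophage-like cells. The 3 chains together made up 5886 CPM of their RNA in the PBS library and 2303 CPM in the DTX library. *C1qb* gave the most UMIs of the chains, *C1qa* followed and *C1qc* gave the fewest, and this order was the same in both libraries. The kit counts a molecule once, whatever its length, but how well each transcript is captured is not known, so the order of the chains describes UMIs and not protein.

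*C1qa*, the A chain, was at 2070 CPM in the PBS library and 765 in the DTX library, from 17395 and 23497 UMIs, a log2 ratio of DTX over PBS of -1.43 (interval -1.46 to -1.41). *C1qb*, the B chain, was at 2816 and 1168 CPM, from 23663 and 35846 UMIs, a log2 ratio of -1.27 (-1.29 to -1.25). *C1qc*, the C chain, was at 999 and 370 CPM, from 8396 and 11357 UMIs, a log2 ratio of -1.43 (-1.47 to -1.39). All 3 chains were thus lower in the DTX library, by 2.70-fold for *C1qa* and *C1qc* and by 2.41-fold for *C1qb*, and the interval of *C1qb* does not meet those of the others. All 3 of 3 were past 2-fold lower, against 3.31% of the 10184 genes with at least 50 UMIs in these cells, while 1.63% were past 2-fold higher. Ordered from the lowest ratio, they took places 159 (*C1qa*), 160 (*C1qc*) and 215 (*C1qb*) of 10184. Because there is 1 library per condition, no p-value can be given for these differences.

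**Figure D1:**
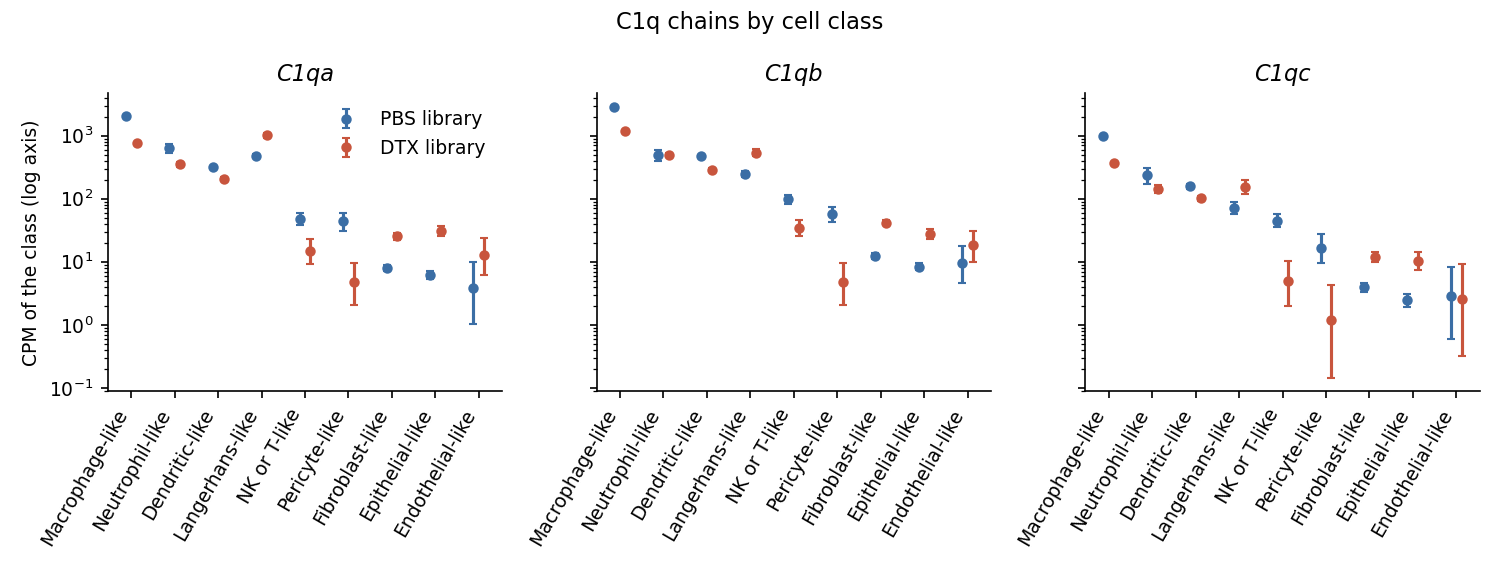
Levels of *C1qa*, *C1qb* and *C1qc*, with a panel for each chain, in the classes of cells shown, in the PBS and DTX libraries. Levels are in CPM on a log axis, with bars for the exact Poisson interval. *C1qb* is highest in macrophage-like cells in both libraries (2816 and 1168 CPM). *C1qa* in Langerhans-like cells is higher in the DTX library (478 and 1022 CPM).

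In the PBS library the summed level of macrophage-like cells was followed by that of neutrophil-like cells at 1357 CPM (1200 to 1528), dendritic-like cells at 940 CPM (911 to 970), Langerhans-like cells at 796 CPM (747 to 847), NK- or T-like cells at 191 CPM and pericyte-like cells at 117 CPM. Mast-, fibroblast-, epithelial- and endothelial-like cells lay lower, at 32.1, 24.2, 17.1 and 16.2 CPM, where mast- and fibroblast-like cells had overlapping intervals, as had epithelial- and endothelial-like cells. In the DTX library macrophage-like cells were followed by Langerhans-like cells at 1714 CPM (1591 to 1844), neutrophil-like cells at 991 CPM and dendritic-like cells at 595 CPM. Fibroblast-, epithelial-, NK- or T- and endothelial-like cells of the DTX library followed at 79.0, 69.3, 54.3 and 33.7 CPM, each with an interval that overlapped its neighbour's, and pericyte-like cells were lowest at 10.7 CPM. The order thus kept macrophages first and moved Langerhans-like cells from the fourth place to the second. The 8 macrophage markers, among them *Lyz2*, *Cd68* and *Csf1r*, summed to 5627 and 6705 CPM in neutrophil-like cells and to 4262 and 3188 CPM in dendritic-like cells, and their part in the C1q levels there was not tested. In neutrophil-like cells, 9 of 130 cells of the PBS library and 25 of 460 of the DTX library had at least 10 C1q UMIs, and these held 95.6% and 94.5% of the class's C1q UMIs. Of the 2 dendritic-like clusters, 1 had none of the dendritic markers among its 10 leading genes. The neutrophil-like cells are shallow (median 1229 and 1921 UMIs), and in the PBS library 12 of 130 reached the 2000 UMIs used for shares of cells, so that no share is read from them.

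The direction of the difference was not the same in every class. In Langerhans-like cells the sum was higher in the DTX library by 1.11 on the log2 scale (interval 0.97 to 1.25), with 1.10 for *C1qa*, 1.12 for *C1qb* and 1.11 for *C1qc*, so that 3 of 3 chains were past 2-fold higher against 1.38% of the genes measured there. The ratio of the sum was 0.89, short of 2-fold, without the 1 cell of the DTX library with the most C1q, and 0.68 with cells of up to 10% mitochondrial UMIs included. The 8 macrophage markers were also higher there, at 1444 and 2384 CPM, with *Lyz2* at 330 and 1068 CPM, and their part in the C1q ratio was not tested. In fibroblast-like cells the ratios were 1.56, 1.68 and 1.40, again 3 of 3 past 2-fold higher, against 2.65% of genes. In epithelial-like cells they were 2.16, 1.62 and 1.71, against 2.67% of genes. In NK- or T-like cells all 3 were past 2-fold lower (-1.63, -1.48 and -2.95), against 1.29% of genes. The remaining ratios of the sum were -0.66 in dendritic-like cells, -0.45 in neutrophil-like cells and -3.34 in pericyte-like cells, where 2 cells held 90.5% of the 105 C1q UMIs of the PBS library and the DTX library gave 18 UMIs in all.

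Few cells held much of this C1q, more so in the DTX library for fibroblast- and epithelial-like cells. Fibroblast-like cells with at least 10 C1q UMIs numbered 9 and 19, and held 42.1% and 84.5% of the class's C1q UMIs in the PBS and DTX libraries, while 398 and 111 had any C1q UMI. Epithelial-like cells of this kind numbered 8 and 5 and held 38.7% and 82.5%, and among NK- or T-like cells they numbered 4 and 2 and held 87.1% and 76.6%. The level of macrophage markers moved with that of C1q in fibroblast- and epithelial-like cells: the 8 markers summed to 147 and 472 CPM in fibroblast-like cells and to 120 and 499 CPM in epithelial-like cells. Per 100 macrophage-marker UMIs, fibroblast-like cells had 16.5 and 16.7 C1q UMIs and epithelial-like cells 14.2 and 13.9, against 44.2 and 17.8 in macrophage-like cells. The part of doublets and free RNA in these values was not tested.

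Of all C1q UMIs in the cells used, macrophage-like cells held 87.8% in the PBS library and 92.2% in the DTX library, while they were 21.6% and 67.2% of the cells. Dendritic-like cells held 6.82% and 3.86%, and Langerhans-like cells 1.78% and 0.93%. The dendritic-like level also came from few of its cells: those with at least 10 C1q UMIs held 94.6% and 95.4% of it.

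The ratio of the chains was close in macrophage-, dendritic- and fibroblast-like cells. In macrophage-like cells *C1qa*, *C1qb* and *C1qc* gave 35.2%, 47.8% and 17.0% of the C1q UMIs in the PBS library and 33.2%, 50.7% and 16.1% in the DTX library. Dendritic-like cells were close to this, at 33.4%, 49.9% and 16.7% in the PBS library and 34.5%, 48.4% and 17.1% in the DTX library. Fibroblast-like cells were at 32.8%, 51.1% and 16.2% in the PBS library and 32.2%, 52.7% and 15.1% in the DTX library. In each of these the B chain gave the most UMIs. NK- or T-like cells of the PBS library, with 311 C1q UMIs, had less *C1qa* (25.1%, 20.4 to 30.3) and more *C1qc* (23.5%, 18.9 to 28.6) than macrophage-like cells. Of these 311 UMIs, 87.1% were in 4 cells and 145 in a single cell, so this composition rests on few cells and the intervals do not cover that.

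Langerhans-like cells, the dendritic-like phagocytes of the epidermis, had another composition. *C1qa* gave 60.02% of their C1q UMIs in the PBS library (interval 56.9 to 63.1, 602 of 1003 UMIs) and 59.6% in the DTX library (55.9 to 63.3, 427 of 716 UMIs). *C1qb* gave 31.0% and 31.3%, and *C1qc* 8.97% and 9.08%. The A chain therefore led here and the B chain in macrophage-like cells, and the intervals of the *C1qa* share in Langerhans-like cells lay above those of macrophage-, dendritic- and fibroblast-like cells in both libraries. Epithelial-like cells of the DTX library, at 45.0%, and neutrophil-like cells of the PBS library, at 46.3%, had the next highest *C1qa* shares, and neither was as high in the other library (36.4% and 35.5%). *C1qa* led there too, with 121 UMIs against 108 of *C1qb* and 126 against 99, though the intervals of the shares overlapped. In these, 5 and 9 cells held 82.5% and 95.6% of the class's C1q UMIs.

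**Figure D2:**
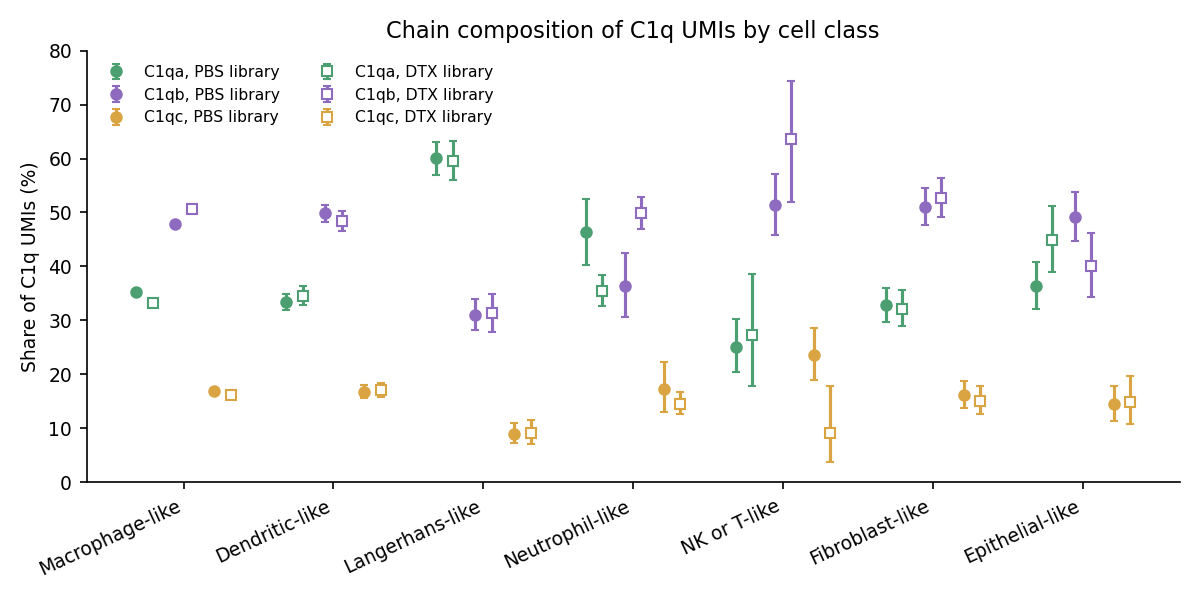
Share of C1q UMIs from each of the 3 chains, in percent, in the classes of cells shown and each library, with bars for the Clopper-Pearson interval. *C1qa* gives 60.02% and 59.6% in Langerhans-like cells and 35.2% and 33.2% in macrophage-like cells.

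The Langerhans-like cells, 122 and 37 in number, carried the markers of that cell type. Every one had a UMI of *Cd207*, which encodes langerin, and it stood at 11582 CPM in the PBS library and 9756 CPM in the DTX library. *Epcam* was at 1047 and 1393 CPM and *H2-M2* at 748 and 1326 CPM. Of the macrophage markers, *Fcgr1*, an Fc receptor, was at 9.52 and 4.79 CPM, *Cd14* at 109 and 93.4 CPM, and *Lyz2*, lysozyme, had a UMI in 34.4% and 32.4% of the cells. The 8 macrophage markers together were at 13311 and 12916 CPM in macrophage-like cells, well above their level in Langerhans-like cells. *Csf1r*, whose product Langerhans cells also need, was at 513 and 622 CPM and *Mrc1* at 15.1 and 16.8 CPM. Langerhans-like cells had 55.1 and 71.9 C1q UMIs per 100 macrophage-marker UMIs, more than macrophage-like cells (44.2 and 17.8).

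Some C1q was detected in most Langerhans-like cells, but the 29 and 18 cells with at least 10 C1q UMIs held 67.0% and 90.1% of the class's C1q UMIs. A *C1qa* UMI was found in 79.5% of them in the PBS library and 89.2% in the DTX library, and in 50.8% and 69.4% at 2000 UMIs per cell. At that depth *C1qb* was found in 22.5% and 38.9% and *C1qc* in 10.8% and 16.7%. NK- or T-like cells, taken as a class without C1q of its own, with a median of 6534 and 8059 UMIs before thinning, gave a *C1qa* UMI in 2.28% and 1.32% at the same depth. The summed C1q per Langerhans-like cell had a lowest value of 0, a median of 5 and a highest of 84 UMIs in the PBS library, and of 0, 9 and 145 in the DTX library, where 17 and 3 cells had none. The highest cell of the DTX library held 20.3% of the class's C1q UMIs there.

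In single Langerhans-like cells *C1qa* was also often the leading chain, but its share varied among them. At 2000 UMIs, *C1qa* was the only chain detected in 36 of 120 Langerhans-like cells of the PBS library (interval 21.98 to 39.0%) and in 11 of 36 of those of the DTX library (30.6%, 16.3 to 48.1), against 0.94% and 1.58% of macrophage-like and 3.23% and 0.70% of dendritic-like cells. Of Langerhans-like cells with *C1qa*, 36.1% and 48.0% also had *C1qb*, against 98.0% and 93.9% in macrophage-like and 82.5% and 93.5% in dendritic-like cells. Both kinds of share also depend on the level of each chain. *C1qb* was at 247 and 536 CPM in Langerhans-like, 2816 and 1168 in macrophage-like and 469 and 288 in dendritic-like cells. Few C1q UMIs alone can leave a single chain detected, so these shares do not show the composition by themselves. Among cells with at least 10 C1q UMIs, *C1qa* exceeded *C1qb* in 21 of 29 (72.4%) and 15 of 18 (83.3%) Langerhans-like cells, against 24.6% and 21.7% of macrophage-like and 15.1% and 15.7% of dendritic-like cells. Of such neutrophil-like cells, it did so in 7 of 9 in the PBS library and 7 of 25 in the DTX library. The *C1qa* share was 70.7% and 63.4% in Langerhans-like cells with 1 to 9 C1q UMIs and 54.8% and 59.2% in those with at least 10. In the 86 and 24 Langerhans-like cells with no UMI of *Fcgr1* or *Cd14* it was 74.5% (70.4 to 78.4) and 64.6% (59.4 to 69.5). These cells held 360 of the class's 602 *C1qa* UMIs and 99 of its 311 *C1qb* UMIs in the PBS library. In the DTX library they held 235 of 427 and 108 of 224. The *C1qa* share was thus lower in the Langerhans-like cells with a UMI of *Fcgr1* or *Cd14*. *Lyz2* was not part of this split, and the part of macrophage RNA in the C1q of Langerhans-like cells was not tested.

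In macrophage-like cells, detection of a chain depends on the depth of the cell, so shares of cells were taken after thinning each to 2000 UMIs, which left out 222 and 138 shallower cells. *C1qa* then had a UMI in 69.3% of macrophage-like cells of the PBS library and 33.7% of those of the DTX library, *C1qb* in 77.2% and 43.2%, and *C1qc* in 62.9% and 30.4%. All 3 chains were found together in 57.9% (55.3 to 60.4) and 24.2% (23.0 to 25.6), and before thinning in 65.8% and 34.5%. None was found in 21.2% and 53.7%. For the background, NK- or T-like cells had all 3 chains in 1.37% in the PBS library and in 0 of 151 cells in the DTX library (interval up to 2.41%), and fibroblast-like cells in 0.10% and 0.62%.

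**Figure D3:**
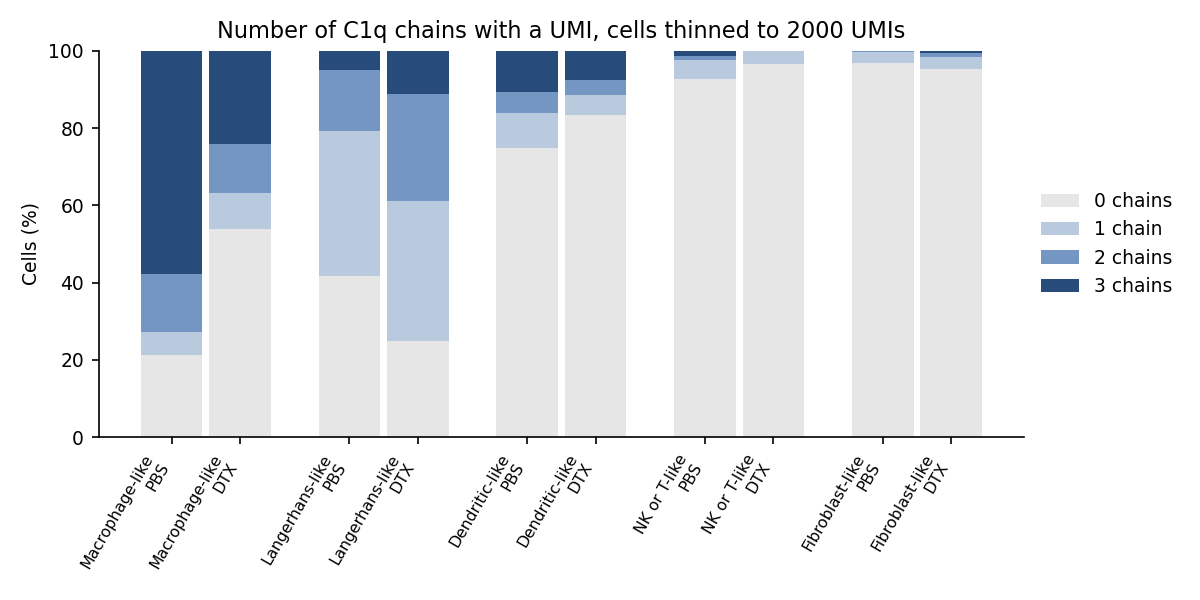
Percent of cells with 0, 1, 2 or 3 C1q chains detected after thinning to 2000 UMIs per cell, by class and library. All 3 chains are detected in 57.9% of macrophage-like cells in the PBS library and 24.2% in the DTX library, while Langerhans-like cells most often hold 0 or 1.

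Chains were found with each other more often than alone. Of macrophage-like cells with *C1qa*, 98.0% in the PBS library and 93.9% in the DTX library also had *C1qb*, and of those with *C1qc*, 98.9% and 95.2% did. In the other direction, 87.9% and 73.2% of the cells with *C1qb* had *C1qa*. *C1qb* alone was found in 4.96% and 6.90% of cells. Over macrophage-like cells, Pearson's r between log values of the chains at 2000 UMIs was between 0.70 and 0.79 for each pair in both libraries. These r describe 1493 and 4306 cells that share a library and a depth.

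The libraries differed both in the share of macrophage-like cells with a C1q UMI detected and in the number of C1q UMIs in those cells. At 2000 UMIs, the summed C1q per cell had a median of 10 UMIs in the PBS library and 0 in the DTX library, an upper quartile of 18 and 7, and a highest value of 59 and 54. Cells with at least 10 C1q UMIs were 52.5% (49.9 to 55.1) and 19.2% (18.0 to 20.4), and cells with at least 20 were 21.9% and 5.36%. Cells with at least 10 C1q UMIs thus formed a smaller share of the macrophage-like cells in the DTX library. They numbered 784 and 825 at this depth, and before thinning, with the shallower cells, 1085 and 1605. These are numbers of captured cells and are not compared. The mean was 11.6 and 4.49 UMIs, a log2 ratio of -1.37, of which the share of cells with any C1q UMI (78.8% and 46.3%) gave -0.77 and the mean in those cells (14.7 and 9.71 UMIs) gave -0.60. A lower level by itself also lowers the share of cells with a UMI at a fixed depth, so these parts are not independent. The tenth of cells with the most C1q held 27.6% of the UMIs in the PBS library and 48.9% in the DTX library.

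**Figure D4:**
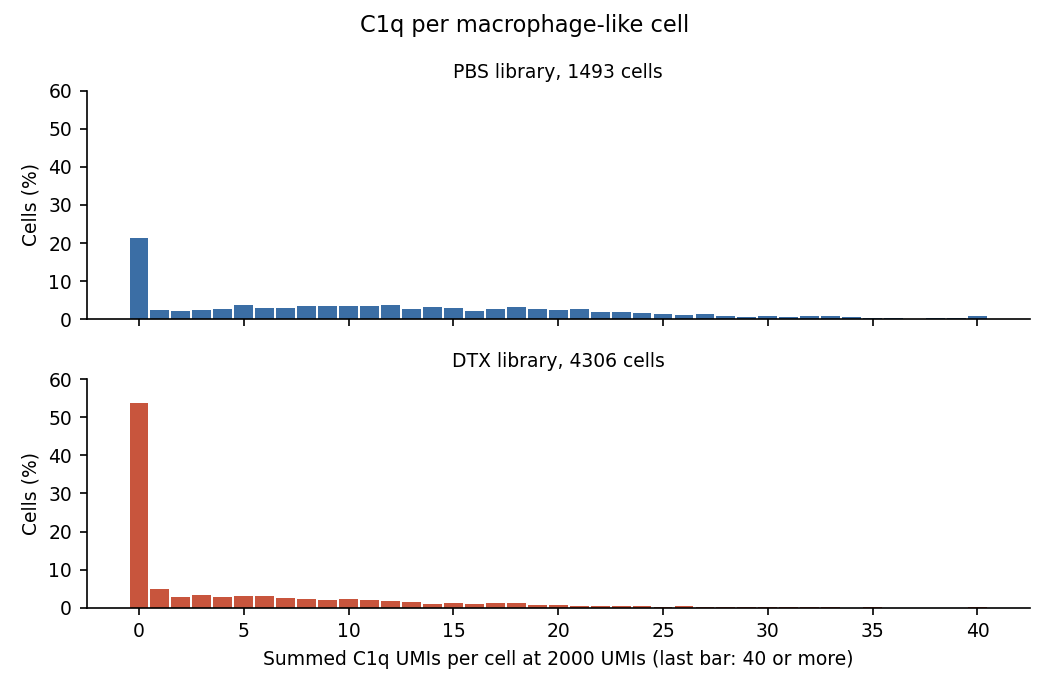
Distribution over macrophage-like cells of the summed UMIs of *C1qa*, *C1qb* and *C1qc* per cell after thinning to 2000 UMIs, as percent of the thinned macrophage-like cells of each library. Cells with none make up 21.2% of these cells in the PBS library and 53.7% in the DTX library. Cells with 40 UMIs or more are pooled in the last bin.

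The share of *C1qa* also varied from cell to cell. In the 839 and 1199 macrophage-like cells with at least 20 C1q UMIs (median 42 in both libraries), it had an SD of 11.5 and 13.6 percentage points, against 7.61 and 7.60 if all cells had one composition and differed by counting alone. The lower and upper quartiles were 28.2% and 41.7% in the PBS library and 24.2% and 42.4% in the DTX library. In macrophage-like cells with 1 to 9 C1q UMIs the *C1qa* share was 31.9% and 23.7%. In those with at least 10 it was 35.3% and 33.6%, so low cells were poorer in *C1qa* here. Among Langerhans-like cells of the PBS library, low cells were richer in *C1qa*. In those of the DTX library the intervals of low and high cells overlapped (51.1 to 74.5% and 55.3 to 63.0%).

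Macrophage-like cells were split further into 8 subclusters, again without the C1q genes. These were made from genes that differ between the libraries, and a subcluster mostly of 1 library may be that library, so their numbers of cells are given as n and not compared. In the PBS library C1q was highest in subcluster 6, led by *Ctsk* and *Acp5* (10860 CPM in 16 cells of the PBS library and 5139 CPM in 196 of the DTX library). It was also high in subcluster 0, led by *Ccl8*, *Mid1* and *Selenop* (6300 CPM in 1244 cells and 5112 CPM in 226), in subcluster 5, led by the heat-shock genes *Hspa1a* and *Hspa1b* (6644 CPM in 195 cells and 5985 CPM in 162), and in subcluster 7, led by the interferon-response genes *Cxcl10*, *Rsad2* and *Ifit1* (5585 CPM in 62 cells and 3662 CPM in 88). Subcluster 2, led by the chemokine genes *Ccl7* and *Ccl2* and by *Cbr2*, was at 4553 CPM in 59 cells and 3663 CPM in 990, and subcluster 4, led by *Il1r2*, *Ramp3* and *H2-Ab1*, at 2952 CPM in 95 cells and 2151 CPM in 620. The lowest were subcluster 3, led by *Arg1* and *Cxcl3* (1722 CPM in 8 cells and 1339 CPM in 988), and subcluster 1, led by *Hp*, *Ifitm6* and *Vcan* (106 CPM in 36 cells and 621 CPM in 1174). In the DTX library the highest and the lowest subcluster, 5 and 1, thus stood at 5985 and 621 CPM.

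In 5 of the 6 subclusters with at least 30 cells in each library, the libraries differed less than over all macrophage-like cells. The log2 ratio of the summed C1q was -0.30 in subcluster 0, -0.31 in subcluster 2, -0.46 in subcluster 4, -0.15 in subcluster 5 and -0.61 in subcluster 7. In subcluster 1 it was larger and of the other direction, at 2.54 (interval 1.94 to 3.22), from 22 UMIs in the PBS library, but in the subcluster led by *Hp* and *Vcan* of a coarser split, with 140 and 1960 cells, it was -0.63. Over these 6 subclusters together the ratio was -1.32 (5842 and 2335 CPM), and with the DTX levels weighted by the share of UMIs each subcluster has in the PBS library it was -0.29 (4778 CPM), and -0.44 in the coarser split. Because the subclusters rest on genes that differ between the libraries, this weighting also holds part of that difference fixed. The share of cells with all 3 chains was 63.3% and 55.8% in subcluster 0, 29 of 58 cells and 38.8% in subcluster 2, and 0 of 36 cells (interval up to 9.74%) and 6.15% in subcluster 1. The *C1qa* share was 20.1% (19.03 to 21.2) in subcluster 1 of the DTX library, the lowest of the subclusters there, and in subcluster 6 it was 44.9% and 39.4%.

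**Figure D5:**
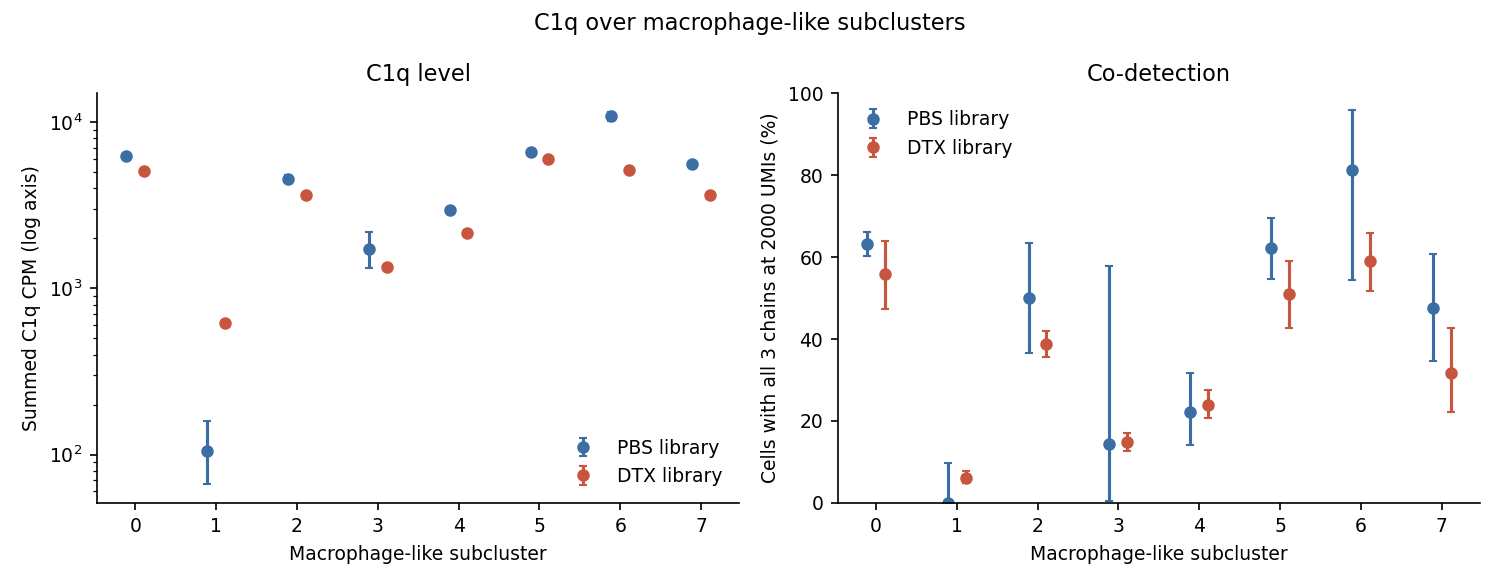
Left, summed C1q level in CPM (log axis) in the 8 macrophage-like subclusters of each library, with exact Poisson intervals. Right, percent of cells with all 3 chains at 2000 UMIs, with Clopper-Pearson intervals. Subcluster 1 is the lowest in both libraries (106 and 621 CPM) and subcluster 5 is at 6644 and 5985 CPM.

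Of 25 macrophage genes chosen as partners, 24 had at least 50 UMIs in macrophage-like cells, and 10 of them were past 2-fold lower in the DTX library, 4 past 2-fold higher and 10 between. Over all 10184 genes 3.31% were past 2-fold lower and 1.63% past 2-fold higher, and the median log2 ratio was 0.06, against -0.49 over the partners. The partners were chosen with earlier results of these data known, and some are genes the study lists for macrophage subclusters of these libraries. Their excess over all genes is therefore no independent support. The 10 lower were *Folr2*, *Trem2*, *Apoe*, *Ccl8*, *Spic*, *Igf1*, *Gas6*, *Pltp*, *Ms4a7* and *H2-Ab1*, and the 4 higher were *Arg1*, *Ly6c2*, *Vcan* and *Plac8*. Over single macrophage-like cells at 2000 UMIs, C1q was higher with than without a UMI of the partner in both libraries for 16 of the 25, lower for 7, and different in direction for 2. These counts go by direction alone, and no count over all genes is given beside them. The higher ones include *Lyve1*, with a UMI in 2 and 3 cells, and the lower ones *Arg1*, whose intervals in the PBS library overlapped. Cells with an *Mrc1* UMI held a mean of 12.95 C1q UMIs in the PBS library and 5.91 in the DTX library, and cells without held 10.1 and 3.44. The C1q level was thus lower in the DTX library both in cells with and in cells without an *Mrc1* UMI at this depth, by 1.13 and 1.55 on the log2 scale, and cells of the DTX library with an *Mrc1* UMI had all 3 chains in 32.1% against 65.8% in the PBS library. Before thinning an *Mrc1* UMI was found in 71.7% and 65.1% of macrophage-like cells, so a cell without one at 2000 UMIs may still hold the RNA.

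The contrast was larger for other partners. Cells with *Ms4a7*, a membrane protein gene of mature macrophages, held 15.3 and 7.74 C1q UMIs against 5.99 and 2.51 without, and cells with *Apoe*, a lipid carrier, held 12.4 and 4.83 against 2.47 and 1.45. The reverse was seen for *Vcan*, a proteoglycan gene of monocytes, with 4.28 and 1.64 C1q UMIs against 12.1 and 5.83, and for *Plac8*, with 7.72 and 3.26 against 14.4 and 7.55. For *Arg1*, arginase, the values were 10.7 and 3.60 with a UMI against 11.6 and 4.84 without. In cells with a UMI of *Igf1*, a growth factor, or of *Gas6*, a bridge to dying cells, the log2 ratio of C1q between the libraries was -0.25 and -0.30. These were the smallest differences among cells with a UMI of any of the 25 partners. Both genes had their highest level in fibroblast-like cells (*Igf1* at 279 CPM in the DTX library, *Gas6* at 624 CPM in the PBS library). The part of fibroblast RNA in these ratios was not tested.

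RNA of *C1ra*, *C1s1*, *C2*, *C4b* and *C3*, which act after C1q, was found in macrophage-like cells but was highest in fibroblast-like cells. Of 31 complement and C1q-binding genes, 30 were in the matrices and 18 had at least 50 UMIs in macrophage-like cells, of which 4 were past 2-fold lower in the DTX library, 2 past 2-fold higher and 12 between (all genes: 3.31% lower and 1.63% higher), with a median log2 ratio of 0.22 against 0.06 over all genes. The 4 lower were *C1s1* (5.71 and 2.02 CPM), the C1s protease, *C4b* (44.2 and 15.9 CPM), its substrate, *Serping1* (21.7 and 4.95 CPM), the C1 inhibitor, and *Itgax* (47.8 and 20.3 CPM), an integrin subunit. *C1ra*, the C1r protease, was at 7.38 and 3.29 CPM, *C2* at 1.79 and 0.85 CPM with fewer than 50 UMIs, and *C3* at 128 and 151 CPM. The 2 higher were *C5ar1*, the receptor of C5a (218 and 493 CPM), and *Itgam*, a subunit of complement receptor 3 (143 and 299 CPM). The highest level of each of these 6 genes over the classes and libraries was in fibroblast-like cells, with *C1ra* at 442 CPM, *C4b* at 1552 CPM and *Serping1* at 2359 CPM in the PBS library and *C1s1* at 474 CPM, *C2* at 95.7 CPM and *C3* at 1713 CPM in the DTX library, so in these libraries the C1q chains and the next proteases of the pathway had their highest RNA level in different cells.

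RNA of fibroblast markers was present in macrophage-like cells at 738 CPM in the PBS library and 148 CPM in the DTX library (8 genes, none at 0), and that of epithelial markers at 472 and 129 CPM (9 genes, none at 0). Their part in the lower *C1s1*, *C4b* and *Serping1* values was not tested. Macrophage-like cells with at least 10 C1q UMIs and those with none had like amounts of this RNA at 2000 UMIs, with means of 1.58 and 1.42 fibroblast-marker UMIs in the PBS library and 0.331 and 0.319 in the DTX library.

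The other genes of the C1q-domain family, which share the globular head but serve other roles, were little seen in macrophage-like cells. All 25 listed were in the matrices, 11 were at 0 in these cells in both libraries, and 4 had at least 50 UMIs, namely *C1qtnf6*, *C1qtnf12*, *Emilin1* and *Emilin2*. None of the 4 was past 2-fold in either direction, with a median log2 ratio of -0.05, and *Emilin2*, an extracellular matrix gene, was at 263 and 450 CPM.

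The genes most like C1q across classes were genes of macrophages. Over 19 sums of a class in a library, Pearson's r of log2 CPM with the mean of the chains was 0.97 for *Cd68*, 0.96 for *Trem2*, 0.95 for *Ms4a7*, *Clec4a1*, *Ctss* and *Aif1*, 0.94 for *Clec12a*, and 0.93 for *Il10* and *Mxi1*, of 12142 genes, while the chains had 0.97 to 0.99 with each other. Across single macrophage-like cells, of 2238 genes, the highest were *Ms4a7* (r of 0.49 in the PBS library and 0.40 in the DTX library), *Lgmn* (0.41 and 0.35), *Ctsb* (0.41 and 0.35), *Apoe* (0.55 and 0.35) and *Selenop* (0.44 and 0.34), followed by *Itm2b*, *Cd63*, *Pltp*, *Grn* and *Pf4*. The lowest were *S100a11* (-0.35 and -0.36), *Plac8* (-0.40 and -0.31), *Chil3* (-0.29 and -0.30), *Srgn* (-0.27 and -0.36) and *Clec4e* (-0.27 and -0.29). These r share the libraries and the depth of the cells and are given as a description.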

How the data were processed

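Per the study's methods, live (7AAD-negative) cells of day 5 wounds were sorted and captured with the 10x Chromium 3' v3 kit, with replicates that were technical only. Whether these were joined in 1 library per condition is not given in the sources used here. The authors deposited raw UMI counts per gene and barcode, made with Cell Ranger (6.1.1 in the submitters' processing notes) against mm10, without normalization. Depth was 105511870 UMIs over 12058 barcodes (PBS) and 81858751 over 11031 (DTX). Barcodes with 500 or more genes and 6% or less mitochondrial UMIs passed (8326 and 7188). Scrublet in scanpy 1.11.5 marked 382 doublets in the PBS library and 0 in the DTX library, where the 575 highest scores (8.00%) were removed instead. Seurat 5.3.0 in R 4.3.3 clustered the counts (2000 variable genes without C1q, 30 components, resolution 0.2, and 0.5 for macrophage-like cells). Clusters were named from fixed marker lists. Levels are UMIs per 1e6 UMIs of a class (CPM), and ratios are log2 of DTX over PBS with 1 CPM added. Intervals are exact Poisson for levels, Clopper-Pearson for shares and exact conditional binomial for ratios, at 95%, and cover counting error only. Cells are not replicates, and with 1 library per condition no test was run. Sums and intervals were computed with seed 1 in Python 3.11.15 (pandas 2.3.3, scipy 1.17.1, numpy 2.4.6), and the ratios were tested on simulated data. The members and gene lists were chosen with earlier results of these data known. The text names the 3 members, the listed partner, complement and C1q-domain genes by role or past 2-fold, and those of the 10 most and 5 least alike genes that are reported here. The detail on Langerhans-like cells and the promoter motifs were chosen after the data were seen.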

Additional observations from a re-analysis of the deposited data

Results flagged for a closer look

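The summed C1q ratio of DTX over PBS went opposite ways in different classes, and the difference between classes was not tested, since there is 1 library per condition. On the log2 scale it was -1.35 in macrophage-like cells, 1.11 in Langerhans-like cells, 1.67 in fibroblast-like cells and 1.96 in epithelial-like cells. Within macrophage-like cells it was -0.30 in subcluster 0 and 2.54 in subcluster 1, the latter from 22 UMIs in the PBS library, and this difference was not tested either.

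C1q UMIs were also present in barcodes that the main comparisons left out, some of which entered the alternatives with up to 10% mitochondrial UMIs and without doublet removal. Barcodes with over 6% mitochondrial UMIs held C1q at 355 CPM in the PBS library and 688 CPM in the DTX library, where 3 counts would give 0.186 and 0.151 CPM. Barcodes with under 500 genes held 361 and 309 CPM (3 counts: 2.82 and 3.51 CPM), and those removed as doublets 686 and 1263 CPM (3 counts: 0.423 and 0.481 CPM). The cells used stood at 694 and 1397 CPM, so that barcodes with over 6% mitochondrial UMIs were lower than the cells used in both libraries.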

How the results depend on the processing

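No paired analysis was possible because there is 1 library per condition, so no replicate could be left out. No result reversed, and the cause of the moves was not tested. The macrophage-like log2 ratio of -1.35 lay between -1.42 and -1.24 over 10 alternatives: it was -1.25 with at most 2000 genes per cell, -1.28 with up to 10% mitochondrial UMIs, -1.24 with macrophages gated by markers, and -1.42 both in cells of 4000 to 10000 UMIs and with median-of-ratios scaling, which removed a shift of 0.07. In the same order of cell sets, cells with all 3 chains in the PBS library (57.9%) were 54.0%, 54.2%, 54.5% and 54.7%, and 40.7% after thinning to 1000 UMIs; in the DTX library (24.2%) they were 22.6% with at most 2000 genes and 15.1% at 1000 UMIs. The macrophage *C1qa* share was 34.5% (PBS) and 32.5% (DTX) at 4000 to 10000 UMIs, and in the DTX library 35.1% with at most 2000 genes and 33.6% with up to 10% mitochondrial UMIs. Genes past 2-fold lower numbered 188 with at least 200 UMIs, against 337. With DTX levels at the PBS subcluster shares, the ratio of -0.29 was -0.44 at resolution 0.3. The alternatives for Langerhans-like cells were chosen after seeing the data. Their *C1qa* share was 54.8% without doublet removal and 66.3% with up to 10% mitochondrial UMIs in the DTX library, and 84.0% of the PBS library with at most 2000 genes (19 cells), a setting not run for the DTX library, which had too few such cells. Their ratio of 1.11 was 0.68 with up to 10% mitochondrial UMIs and 0.89 without the DTX cell with most C1q. Depth limits what is said of shallow neutrophil-like cells, of single chains per cell and of Langerhans-like cells of the DTX library (37 cells).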
